A study of Mus musculus with 6 samples.

Results

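The genes described here are the cytosolic ribosomal protein genes of mouse CD8 T cells. They were chosen by symbol (*Rps* or *Rpl* followed by a digit, with *Rpsa*, *Rplp0*, *Rplp1* and *Rplp2*, and without pseudogenes marked -ps and the *Rps6k* kinases) and by a total of at least 1000 unique molecular identifiers (UMIs) over 4 single-cell libraries. Of 86 symbols in the feature table, 83 passed. They stand among 9479 genes with that total and 32285 genes in all. *Rpl39l* with 267 UMIs, *Rpl3l* with 5 and *Rpl10l* with 0 were below it, and the lowest genes above it were *Rps19bp1* with 7238, *Rpl7l1* with 11733 and *Rps27rt* with 14781.

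Ribosomal proteins coat and fold the ribosomal RNA of the small and the large subunit, and the P proteins form the stalk that recruits elongation factors. Their mRNAs are abundant in resting cells and belong to the TOP class, whose transcripts begin with a cytosine followed by a tract of pyrimidines and whose translation depends on mTORC1. In T cells, growth signals and Myc drive ribosome production after activation. Tcf7 (TCF1) is the transcription factor of naive and stem-like CD8 T cells, while *Pdcd1* (PD-1) and *Havcr2* mark activated and exhausted cells. Of the 83 genes, 31 encode proteins of the small subunit, 43 of the large subunit and 3 of the stalk. The other 6 are paralogs or related genes: *Rpl22l1*, *Rpl36al*, *Rps27l*, the retrogene *Rps27rt*, and *Rps19bp1* and *Rpl7l1*, which the symbol rule admits although their products are not standard subunit proteins.

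CD8 T cells were sorted as CD45+ CD3+ CD8+ Tomato+ from B16-OVA tumors (a mouse melanoma line that expresses ovalbumin) and draining lymph nodes (LN), 12 days after engraftment by the series' design. Control mice carried CD8-Cre and Rosa26Tomato. CD8-IFNγRKO mice carried CD8-Cre, Rosa26Tomato and IFNgR1flox/flox, so that Cre and Tomato were present in both genotypes and only the floxed receptor differed. The Cre is active in mature CD8 T cells, and mice were 6 to 10 weeks old. Each tissue and genotype gave 1 library from 3 pooled mice, so no comparison below has a replicate or a test. Intervals are exact 95% intervals and cover counting error only.

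The kept cells numbered 6641 (LN control), 6731 (LN CD8-IFNγRKO), 7103 (tumor control) and 8636 (tumor CD8-IFNγRKO), with 28841136 to 93995655 UMIs per library. The targeted gene *Ifngr1* was at 182 and 137 CPM (UMIs of a gene per 1000000 UMIs) in control and CD8-IFNγRKO LN cells and at 718 and 237 CPM in tumor cells, and whether the reads lie in the deleted part is not given in the sources used here. The median depth was 4051, 3863, 6308 and 9402.5 UMIs per cell in the same order, so that depth differed by genotype in tumors. All 8 T cell markers were detected in each library, but *Cd2*, *Cd8a* and *Cd8b1* among them were required in each kept cell, so their detection was fixed by the filter. Library pairs shared 51 to 82 cell barcodes, at most 1.23% of the smaller library. Summed heat shock genes were at 7300, 9310, 7831 and 11885 CPM, higher in CD8-IFNγRKO cells of both tissues, and the part of this in the ribosomal protein values was not tested.

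The start of a transcript carries the TOP feature, so the bases around annotated starts are shown for members that stood at the ends of the comparisons below. Of the 83 genes, 63 had an entry in the RefSeq promoter table (GRCm38.p6). The lines give 10 bases before the start and 20 from it, 5′ to 3′ on the gene's strand, with capitals for the longest run of C and T that opens with C within 5 bases of the start. Windows were chr3:90213629-90213658 (minus) for *Rps27*, chr11:114668570-114668599 (plus) for *Rpl38*, chr7:118116128-118116157 (minus) for *Rps15a*, chr4:86857348-86857377 (minus) for *Rps6*, chr17:24720053-24720082 (plus) for *Rps2*, chr2:32961702-32961731 (plus) for *Rpl12* and chr17:33824543-33824572 (minus) for *Rps28*.
Rps27: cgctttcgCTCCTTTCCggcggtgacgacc
Rpl38: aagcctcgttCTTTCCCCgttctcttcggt
Rps15a: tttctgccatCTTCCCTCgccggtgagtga
Rps6: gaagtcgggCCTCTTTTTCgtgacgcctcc
Rps2: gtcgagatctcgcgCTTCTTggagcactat
Rpl12: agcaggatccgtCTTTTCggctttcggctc
Rps28: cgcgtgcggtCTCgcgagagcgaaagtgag
The first 3 belong to genes lower in CD8-IFNγRKO than in control tumors and the next 3 to genes higher there, and runs of 6 or more pyrimidines were found on both sides. *Rps28*, one of the lower genes, had a run of only 3 at its annotated start. Short runs were found on both sides too. Among genes whose lines are not printed, *Rps12*, a higher gene, had a run of 2 and *Rpl37*, a lower gene, a run of 3. A C followed by at least 4 more pyrimidines opened within 5 bases of the start in 30 of the 63 genes (47.6%), compared with 22.3% of 7548 genes with at least 1000 UMIs and 19.7% of all 27025 genes in the table. The letters CTTTCC, searched on both strands within 20 bases of the start, were in 11 of the 63 (17.5%), compared with 4.27% and 4.3%. These matches describe letters only, and single bases around annotated starts can differ from the starts used in T cells.

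The 83 genes took 33.2% of all UMIs in control LN cells and 32.1% in CD8-IFNγRKO LN cells. In tumors they took 19.8% and 19.6%. Between tissues the share therefore differed far more than between genotypes. Per cell, the median share was 33.2% (quartiles 30.2 to 35.9%) in control LN and 32.1% in CD8-IFNγRKO LN, and 19.1% and 18.97% in the tumors. Small subunit genes accounted for 16.5% of UMIs in control LN and 9.23% in control tumors, and large subunit genes for 14.8% and 9.40%. Fewer transcripts of these genes and more transcripts of other genes cannot be told apart in a share. In number, the set held 9942728 UMIs in 6641 cells of control LN and 11775717 in 7103 cells of control tumors. In CD8-IFNγRKO mice it held 9261603 in 6731 LN cells and 18417221 in 8636 tumor cells. The mean number per cell was thus not lower in tumors, where the median depth per cell was also higher. Summed exhaustion markers stood the other way, at 216 and 205 CPM in LN and 8844 and 8946 CPM in tumors (all 13 detected in each library). This list includes *Gzmb*, at 3359 CPM in control and 4873 CPM in CD8-IFNγRKO tumors. In the same order, *Pdcd1* was at 818 and 619 CPM, *Havcr2* at 305 and 210 CPM and *Entpd1* at 121 and 111 CPM. The near-equal tumor sums thus do not mean equal levels of each marker. The sum of the 10 stem or naive-like markers was lower in tumors, as the share was, from 4804 and 5146 CPM to 403 and 574 CPM. *Klf2* alone made up 2101 and 2302 CPM of the LN sums and 168 and 239 CPM of the tumor sums. The lower sums thus do not mean that each marker of the list was lower. Markers of other cell types also differed between the tissues. The 14 macrophage and DC markers (13 and 11 detected in LN, all in tumors) were at 90.4 and 93.5 CPM in LN and 355 and 259 CPM in tumors. The 4 NK markers, of which 2 to 4 were detected in each library, were at 0.835 and 0.867 CPM in LN and 68.9 and 50.1 CPM in tumors. The 6 B cell markers (all detected in LN, 4 and 5 in tumors) were at 242 and 250 CPM in LN and 7.58 and 18.8 CPM in tumors. *Cd79a* of this list was at only 0.568 and 1.84 CPM in LN, so other genes of the list made up nearly all of the LN sums. Without cells holding UMIs of 3 or more macrophage or DC genes the tumor shares were 19.8 and 19.6%, and the part of the NK and B cell markers was not tested.

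**Figure D1:**
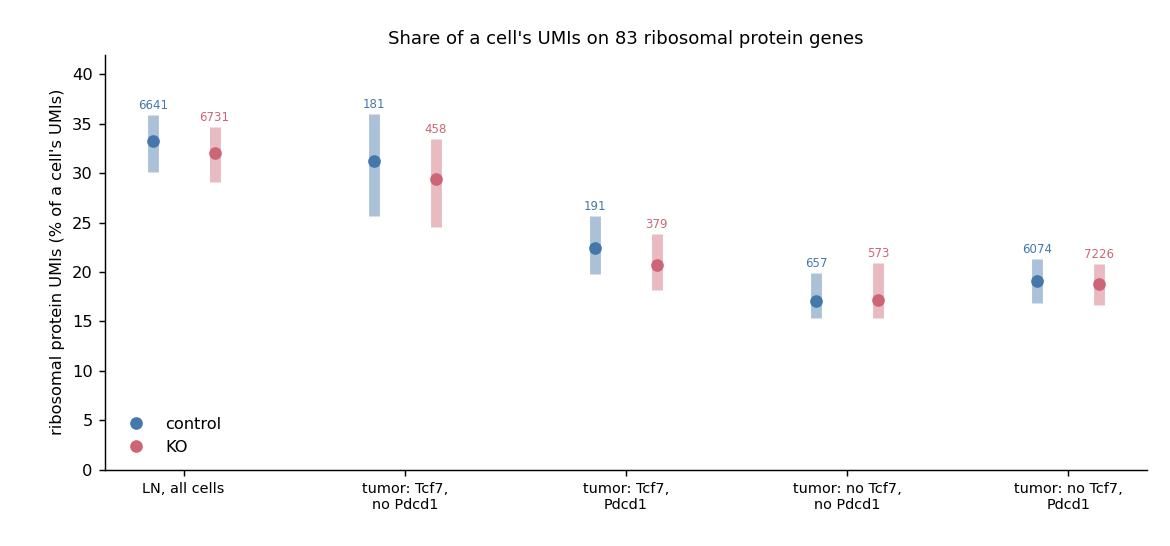
Share of a cell's UMIs (%) on the 83 ribosomal protein genes by tissue and by UMIs of *Tcf7* and *Pdcd1*, in control (blue) and CD8-IFNγRKO (red) libraries; points are medians over cells, bars span the quartiles and numbers give the cells. Tumor cells with *Tcf7* and no *Pdcd1* had medians of 31.3% and 29.4%, next to the LN medians of 33.2% and 32.1%, while those with both were at 22.5% and 20.7%. The classes differed in UMIs per cell and were not compared at equal depth.

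Gene by gene, nearly the whole set had lower CPM in tumors than in LN. In control mice the median log2 ratio of the members, tumor over LN on the log2(CPM + 1) scale, was -0.69, against 0.02 over all 9479 genes. A log2 ratio of -0.25 or lower (0.25 is a 1.19-fold difference) was found for 73 of 83 members, where 36% of all genes were that low, and 1 member was at 0.25 or higher, where 38.7% of all genes were. In CD8-IFNγRKO mice the median was -0.57, against 0.04 over all genes, with 63 members lower (36.4% of all genes) and 4 higher (40.1% of all genes). A log2 ratio of -0.5 or lower was found for 61 members in control (25% of all genes) and 45 in CD8-IFNγRKO mice (26.5%), and 1 member in each was at 0.5 or higher (28.1 and 29.8%). These 2 comparisons share no library. Of the 83 genes, 80 had the same sign in both (Pearson's r = 0.92 and Spearman's rho = 0.88 across genes, which are not independent replicates and differ in abundance). With 78 members below 0 in control and 75 in CD8-IFNγRKO mice, most of the shared signs follow from the direction of the set. Signs and correlations were not computed over all genes, so they are not shown to be particular to the members.

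The 3 lowest ratios in both genotypes belonged to genes of the small subunit. *Rps29*, a zinc-binding protein of the small subunit head, was at 8423 CPM in control LN, 9153 CPM in CD8-IFNγRKO LN, 2321 CPM in control tumors and 1822 CPM in CD8-IFNγRKO tumors. Both tumor values were below both LN values, with log2 ratios of -1.86 (-1.87 to -1.85) in control and -2.33 (-2.34 to -2.32) in CD8-IFNγRKO mice. *Rps27*, another zinc-binding protein (chr3:90212667-90213648, GRCm38.p6), was at 8769, 8725, 2653 and 1844 CPM in the same order, with log2 ratios of -1.72 and -2.24. For *Rps28* the levels were 7350, 7713, 2375 and 1869 CPM. *Rps21* followed at 4228, 4114, 1437 and 1183 CPM. *Rpl38* of the large subunit, known for a role in the translation of Hox mRNAs, was at 4301, 4415, 1938 and 1446 CPM, with log2 ratios of -1.15 and -1.61. The retrogene *Rps27rt*, at 99.5, 87.8, 31.7 and 36.3 CPM, had ratios of -1.62 and -1.25, and its reads may come in part from *Rps27*, whose sequence it copies. In the stalk, *Rplp1* stood at -1.51 and -1.11, *Rplp2* at -0.81 and -0.70 and *Rplp0* at -0.51 and -0.42.

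A single member was far higher in tumors. *Rps27l*, the p53-inducible paralog of *Rps27* (chr9:66944624-66949522, GRCm38.p6), was at 69.3 and 71.1 CPM in control and CD8-IFNγRKO LN and at 259 and 303 CPM in the tumors. Its log2 ratios were 1.89 (1.84 to 1.97) and 2.08 (2.03 to 2.16), while its parent was among the lowest genes. Of the UMIs on *Rps27l* and *Rps27* together, *Rps27l* took 0.784% in control LN and 0.808% in CD8-IFNγRKO LN. This share was 8.88% in control and 14.1% in CD8-IFNγRKO tumors. The next highest ratios were small. *Rpl7l1*, a ribosome assembly factor, was at 0.09 and 0.28, and *Rps19bp1*, whose product binds RPS19 and SIRT1, at -0.03 and 0.28. *Rpl27* stood at 0.20 and 0.12 and *Rpl7a* at 0.11 and 0.28, but against the total of UMIs outside the ribosomal protein, mitochondrial, TCR and heat shock genes *Rpl27* was at -0.08 and -0.14 and *Rpl7a* in control mice at -0.17. *Rpl22l1*, a paralog of *Rpl22* with a role in T cell development, and *Rpl36al* were lower in tumors, at -0.58 and -0.44 and at -0.18 and -0.14.

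**Figure D2:**
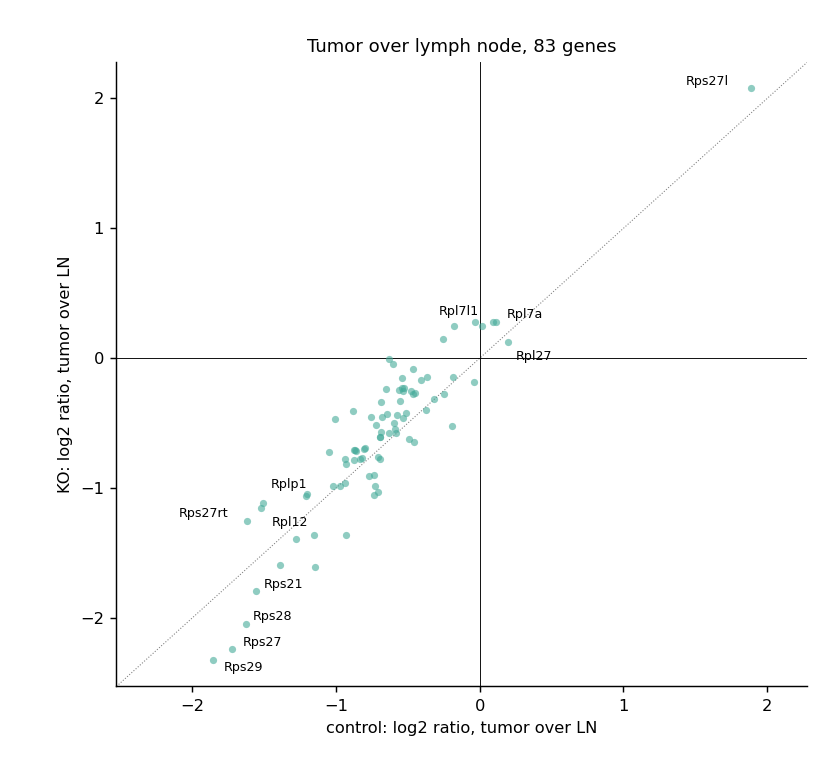
Log2 ratio of pooled CPM, tumor over LN, for each of the 83 genes in control mice (x axis) and CD8-IFNγRKO mice (y axis), with the line of equal ratios dotted. Most genes lie below 0 on both axes, *Rps29*, *Rps27* and *Rps28* at the lower end and *Rps27l* alone at 1.89 and 2.08.

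Other parts of the translation machinery did not share one value between the tissues. Genes of ribosome biogenesis were lower in tumors, with medians of -0.81 in control and -0.37 in CD8-IFNγRKO mice. Of these 42 genes, 36 and 26 were at or below -0.25, where 36 and 36.4% of all genes were. The lowest was *Utp20*, a factor of small subunit processing, at -1.82 and -1.35. The highest was *Nhp2*, a protein of H/ACA ribonucleoproteins, at 0.14 and 0.73. The 78 mitochondrial ribosomal protein genes stood the other way, with medians of 0.30 and 0.52. At or above 0.25 were 43 and 57 of them, where 38.7 and 40.1% of all genes were. The 6 elongation factor genes had medians of -0.44 and -0.20, from -0.80 and -0.68 for *Eef1b2* to 0.25 and 0.83 for *Eif5a*. The 13 eIF3 subunits had medians nearer to 0, at 0.09 and 0.19, but ran from -0.29 to 0.28 in control and from -0.41 to 0.65 in CD8-IFNγRKO mice. *Fau* and *Rack1*, ribosomal proteins that the symbol rule leaves out, were at -0.33 and -0.90 in control mice. In CD8-IFNγRKO mice the 3 genes of their list ran from -0.64 to -0.40, closer together than in control mice.

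In LN, the members hardly differed by genotype. On the log2 scale the median ratio of CD8-IFNγRKO to control cells was -0.06, against 0.02 over all genes. Below 0 were 74 of the 83 members, compared with 3924 of all 9479 genes. No member passed 0.25 in either direction, where 3.49% of all genes were higher and 3.68% lower. *Rps29* was the highest, with 9153 against 8423 CPM and a log2 ratio of 0.12 (0.11 to 0.13). *Rpl7l1* was at 0.12, *Rpl35a* at 0.11 and *Rpl21* at 0.07. The lowest were *Rps27rt* at -0.18 (-0.26 to -0.10), *Rps6*, the target of S6 kinase, at -0.15 (-0.17 to -0.13), *Rpl26* at -0.14 and *Rps12* at -0.13. The interquartile range of the 83 ratios was 0.05, compared with 0.12 over the 3660 genes with at least 10000 UMIs.

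In tumors, the ratios of the members were wider apart than in LN, as were those of other abundant genes. Here the median of the log2 ratios, again CD8-IFNγRKO over control, was 0.07, against 0.02 over all genes, and the summed share of UMIs was nearly equal (19.6 and 19.8%). The interquartile range was 0.28, against 0.05 in LN, and 0.36, against 0.12 in LN, over the genes with at least 10000 UMIs. At 0.25 or higher stood 14 members, where 21.7% of all genes did, and at -0.25 or lower 11 members, where 16.3% did. The members past these limits were thus no larger a share than among all genes of the table. The counting intervals of the 83 ratios had a median width of 0.02, and they do not cover the spread between mice.

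The 11 lower genes were *Rps27*, *Rpl37a*, *Rpl38*, *Rps15a*, *Rpl30*, *Rpl39*, *Rps29*, *Rps28*, *Rpl37*, *Rps21* and *Rpl34*, of which the last 7 are named after their values were seen. *Rps27* was at 2653 CPM in control and 1844 CPM in CD8-IFNγRKO tumors, a log2 ratio of -0.52 (-0.54 to -0.51). *Rpl37a*, a zinc-binding protein of the large subunit, was at 4195 and 3034 CPM (-0.47), *Rpl38* at 1938 and 1446 CPM (-0.42), and *Rps15a* at 7588 and 5740 CPM (-0.40). In LN these 4 genes stood between -0.07 and 0.04.

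The 14 higher genes included *Rps15*, *Rps6*, *Rpl5*, *Rps12*, *Rps2*, *Rpl28*, *Rpl12*, *Rpl14*, *Rplp1*, *Rpl7l1*, *Rpl4* and *Rps25*, several of them named after their values were seen. *Rps15*, a protein of the small subunit head (chr10:80292431-80294114, GRCm38.p6), was at 350 CPM in control and 494 CPM in CD8-IFNγRKO tumors, a log2 ratio of 0.50 (0.47 to 0.52). *Rps6* was at 900 and 1249 CPM (0.47). *Rpl5*, which with RPL11 and the 5S RNA binds Mdm2 when assembly fails, was at 366 and 501 CPM (0.45). In LN these 3 genes stood the other way, at -0.06, -0.15 and -0.09. *Rpl11*, the partner of *Rpl5*, was at -0.08 in both tissues. Across the 83 genes, 29 had the same sign in LN and tumors, with r = -0.29 and rho = -0.26 across genes. These values were not computed over all genes. The 2 comparisons share no library, but the paper describes tumors and draining LN taken from 3 mice of each genotype, so they may share mice.

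**Figure D3:**
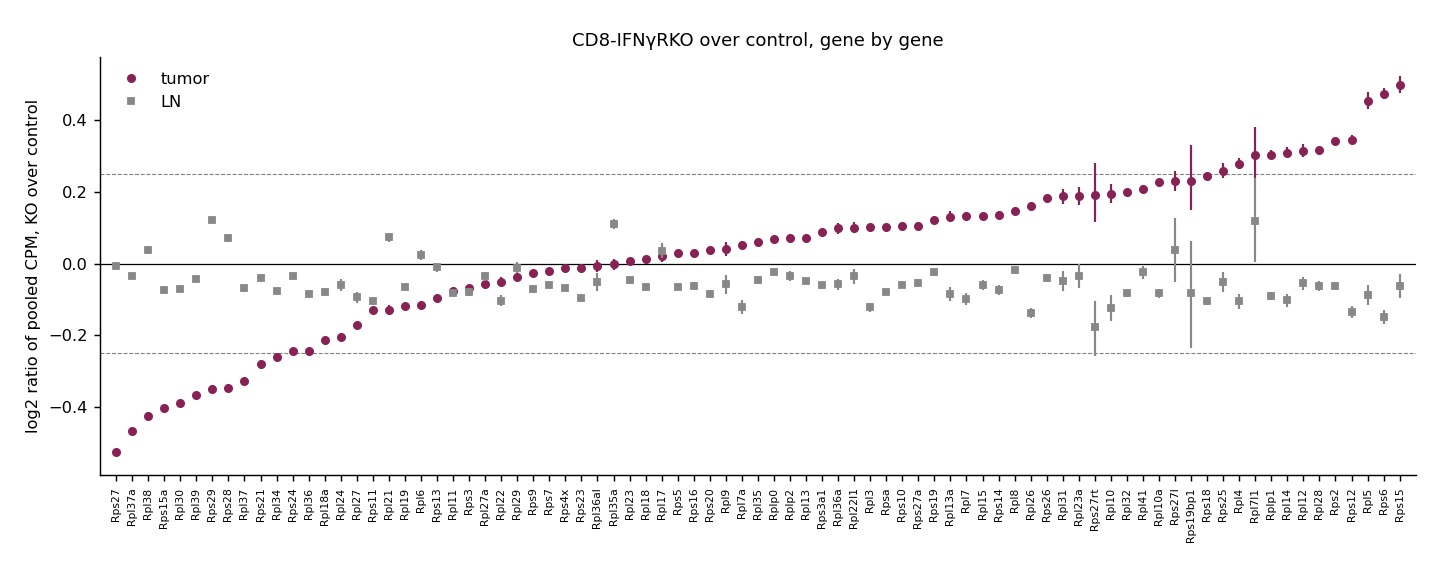
Log2 ratio of pooled CPM, CD8-IFNγRKO over control, for 81 of the 83 genes in tumors (purple circles) and LN (grey squares), ordered by the tumor value; vertical lines are exact intervals for counting error and dashed lines mark -0.25 and 0.25. The tumor values run from -0.52 for *Rps27* to 0.50 for *Rps15*, while the LN values lie between -0.18 and 0.12.

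The 3 lowest and 3 highest genes kept their sign in each band of UMIs per cell. They were picked as the extremes of these same cells pooled, so kept signs were likely from the start and do not test the differences. In cells with 5000 to 10000 UMIs of both tumor libraries, *Rps27* was at -0.42, *Rpl37a* at -0.44, *Rpl38* at -0.42, *Rps15* at 0.47, *Rpl5* at 0.45 and *Rps6* at 0.44. In cells with 20000 UMIs or more, the same genes were at -0.53, -0.47, -0.44, 0.41, 0.40 and 0.44. *Rps27* was at -0.18 in cells with 2000 to 5000 UMIs, the band where its difference was least. In tumor cells without a *Tcf7* UMI, 14 members were higher (22% of all genes) and 13 lower (17.2%), around a median of 0.07. In those with a *Tcf7* UMI, the median was 0.01, with 4 members higher (22.9%) and 9 lower (16.3%), or 2 and 10 with median of ratios scaling. *Rpl38* was the lowest there, at -0.39, followed by *Rps28*, *Rps29* and *Rpl37a* at -0.35, -0.35 and -0.33. *Rps27rt* at 0.51, *Rps12* at 0.32, *Rps6* at 0.27 and *Rplp1* at 0.26 were the highest. Cycling markers *Mki67* and *Top2a*, summed, were at 283 CPM in control and 423 CPM in CD8-IFNγRKO tumors, and without cells holding a UMI of either the median of the members was 0.10, against 0.04 over all genes, with 17 higher (23.5% of all genes) and 10 lower (13.4%).

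Ribosome biogenesis genes stood apart from the ribosomal proteins in this comparison. Their median log2 ratio in tumors was 0.42, with 31 of 42 at or above 0.25 and 0 at or below -0.25, where 21.7 and 16.3% of all genes were. *Rrp9*, a U3 snoRNA-binding protein, was the highest, at 0.78 (27.1 against 15.4 CPM). *Aamp* was the lowest, at -0.13. *Myc* was at 42.7 CPM in control and 94.98 CPM in CD8-IFNγRKO tumors, a log2 ratio of 1.14 (1.09 to 1.22), and at 208 and 201 CPM in LN. In the same list of growth signalling genes, with a median of -0.05, the Myc antagonist *Mxd4* was the lowest, at -0.81. The mitochondrial ribosomal proteins had a median of 0.22, with 33 of 78 higher and 0 lower. Of the 27 initiation factor genes outside eIF3, 11 were higher and 0 lower, from *Eif4a1*, the helicase of eIF4F, at 0.70 to *Eif1* at -0.20. The eIF3 subunits ran from 0.52 for *Eif3b* to -0.26 for *Eif3f*, and the elongation factors from 0.56 for *Eif5a* to 0.04 for *Eef1a1*. *Fau* and *Rack1* were at -0.35 and 0.43. Among 16 other TOP mRNA genes, *Snhg6* was at 0.58 and *Pfdn5* at -0.55. In LN, the biogenesis genes had a median of 0.00 and none of them passed 0.25, where 3.49% of all genes were higher and 3.68% lower.

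Within tumors, ribosomal protein transcripts took a larger share of the UMIs of cells with a *Tcf7* UMI than of cells without one. The class held 372 of 7103 control cells and 837 of 8636 CD8-IFNγRKO cells. The share of UMIs was 24.7% with and 19.6% without a *Tcf7* UMI in control tumors, and 24.2% and 19.3% in CD8-IFNγRKO tumors. In number, the median was 1415 ribosomal protein UMIs per cell with and 1244 without *Tcf7* in control tumors, but 1313 and 1885 in CD8-IFNγRKO tumors, so that only the share was higher in both libraries. By the number of *Tcf7* UMIs, the median share over control cells was 18.9% at 0, 22.8% at 1, 26.7% at 2 and 27.4% at 3 or more. In CD8-IFNγRKO cells these medians were 18.7, 21.4, 24.98 and 27.5%. The share was thus higher at each further UMI in both libraries. In LN, where most cells have a *Tcf7* UMI, the control median was 32.6% for the 988 cells without one.

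Depth differed between the classes, with medians of 4562.5 and 6394 UMIs per control cell with and without *Tcf7*, and 4521 and 9901 in CD8-IFNγRKO tumors. Below 2000 UMIs, the median shares with and without *Tcf7* were 20.7 and 16.1% in control (21 and 784 cells) and 17.7 and 15.9% in CD8-IFNγRKO tumors (64 and 603 cells). Between 2000 and 5000 UMIs, they were 29.1 and 18.8% in control and 27.8 and 17.05% in CD8-IFNγRKO tumors. Between 5000 and 10000 UMIs they were 24.9 and 19.5%, and 25.9 and 18.7%. At 20000 UMIs or more they were 22.3 and 20.3%, and 21.1 and 19.8%. The median was higher with *Tcf7* in each band, and the gap was widest between 2000 and 5000 UMIs, with smaller gaps below and above in both libraries.

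**Figure D4:**
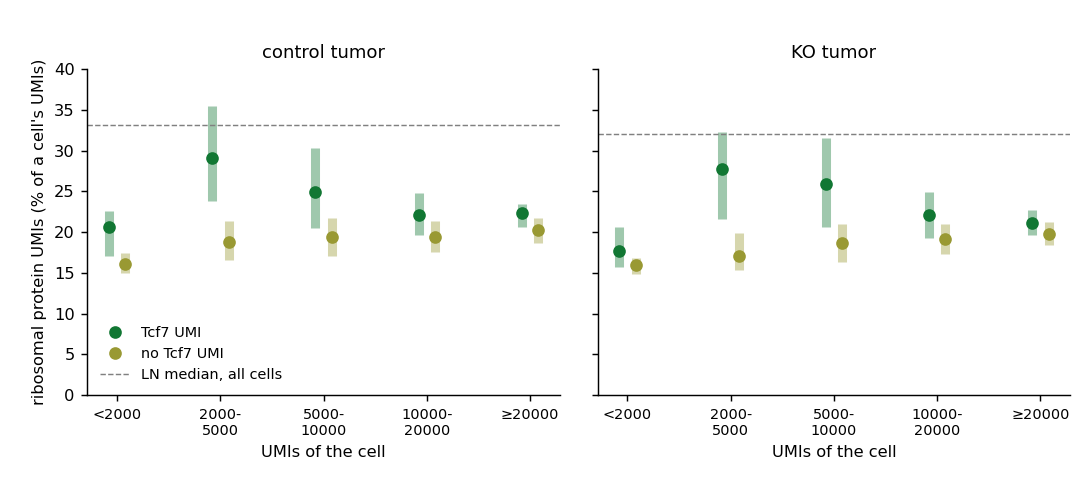
Median share of a cell's UMIs (%) on the 83 genes, by the cell's number of UMIs (x axis), for tumor cells with (green) and without (olive) a *Tcf7* UMI in control and CD8-IFNγRKO tumors; bars span the quartiles and the dashed line is the LN median of the same genotype. The shares with *Tcf7* were 20.7 and 17.7% below 2000 UMIs, 29.1 and 27.8% between 2000 and 5000 UMIs and 22.3 and 21.1% at 20000 or more.

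Cells with a *Tcf7* UMI were a mixture in this respect. Of them, 30.1% (25.5 to 35.0%, Clopper-Pearson) in control and 29.9% (26.8 to 33.1%) in CD8-IFNγRKO tumors reached the lower quartile of the LN library of their genotype. Of the cells without, 0.49% (0.338 to 0.688%) and 0.718% (0.543 to 0.931%) did. These intervals take each cell as a separate draw and do not cover the spread between mice. Cells with *Tcf7* were then divided by *Pdcd1*, a split made after the values were seen. Of these, the 181 control cells without a *Pdcd1* UMI had a median share of 31.3% at a median of 3584 UMIs. The 458 such CD8-IFNγRKO cells had 29.4% at 3832.5 UMIs. With a *Pdcd1* UMI, 191 control and 379 CD8-IFNγRKO cells had 22.5 and 20.7%, at medians of 8274 and 7983 UMIs. These shares were nearer to the 19.1 and 18.8% of cells with *Pdcd1* and without *Tcf7*. Cells with neither transcript had the lowest medians, 17.05 and 17.2%, at 1839 and 2415 UMIs. The classes by *Tcf7* and *Pdcd1* were not compared at equal depth. The sum of the B cell markers differed between the classes too. It was at 50.5 and 78.5 CPM (3 and 2 of 6 detected) in tumor cells with *Tcf7* and at 5.51 and 14.9 CPM in those without. *Cd79a* of this list had 1 UMI in control and 0 UMIs in CD8-IFNγRKO tumor cells with *Tcf7*. Other genes of the list thus made up nearly all of the sums, which do not show B cells in the class. The part of LN cells or of free RNA in these values was not tested.

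Most of the individual genes were higher with *Tcf7*. The median log2 ratio of cells with over cells without a *Tcf7* UMI was 0.32 in control and 0.30 in CD8-IFNγRKO tumors, against -0.02 over all genes in each. In control tumors 58 of 83 members were at 0.25 or higher (21% of all genes) and 0 at -0.25 or lower (23.4%). In CD8-IFNγRKO tumors the numbers were 50 (23.8%) and 2 (25%). Signs were the same for 77 of 83 genes in these 2 libraries, which share no cells (r = 0.84, rho = 0.81 across genes). With 81 members above 0 in control and 75 in CD8-IFNγRKO tumors, most of the shared signs follow from the direction of the set. The same values were not computed over all genes. Among cells with a *Pdcd1* UMI only, the medians were 0.20 and 0.14, and 20 and 10 members were at 0.25 or higher, where 19.6 and 19.7% of all genes were. There the share of members past 0.25 was near that of all genes in control tumors and below it in CD8-IFNγRKO tumors.

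*Rps27* and its retrogene copy *Rps27rt* had the highest ratios with *Tcf7* in both tumor libraries. In control tumors it was at 4212 CPM with and 2578 CPM without a *Tcf7* UMI, and in CD8-IFNγRKO tumors at 3496 and 1737 CPM. Each class with *Tcf7* was above each class without, and all were below the LN levels of 8769 and 8725 CPM. The log2 ratios were 0.71 (0.68 to 0.74) and 1.01 (0.99 to 1.03). *Rps27rt* was at 0.66 and 1.04, *Rplp1* at 0.59 and 0.55, *Rps29* at 0.56 and 0.58, *Rps28* at 0.54 and 0.55 and *Rps21* at 0.54 and 0.62. *Rps24*, a protein of the small subunit mutated in Diamond-Blackfan anemia, was at 0.50 and 0.68. In cells with *Pdcd1*, *Rps27* was at 0.38 and 0.58 and *Rps27rt* at 0.45 (0.13 to 0.77) and 0.59, still the highest of the set in CD8-IFNγRKO tumors. In control tumors *Rplp1* was also at 0.38 (0.34 to 0.43), so the order of these genes was within counting error there.

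Some members were not higher with *Tcf7* in one or both tumor libraries. *Rps27l* was at 232 CPM with and 260 CPM without a *Tcf7* UMI in control and at 219 and 309 CPM in CD8-IFNγRKO tumors, log2 ratios of -0.16 and -0.49, but it was at 0.00 in control cells with a *Pdcd1* UMI. *Rpl7l1* was at -0.05 (-0.34 to 0.23), within counting error, and at -0.25. *Rpl27*, *Rps15a* and *Rps19bp1* were between 0.01 and 0.04 in control tumors. In CD8-IFNγRKO tumors *Rpl27* was at 0.11 and *Rps19bp1* at 0.01, but *Rps15a* was higher, at 0.27. In CD8-IFNγRKO tumors *Rps15* was below 0, at -0.09, with 0.18 in control tumors, although *Rps15* was at 0.12 in CD8-IFNγRKO cells with 5000 to 10000 UMIs, at 0.03 without cycling cells and at 0.00 against the total without ribosomal protein, mitochondrial, TCR and heat shock genes. *Rpl22l1* was at 0.28 and 0.09, and at -0.02 in CD8-IFNγRKO cells with *Pdcd1*. *Rplp0* and *Rplp2* were near the median, at 0.32 and 0.34 in control and at 0.29 and 0.31 in CD8-IFNγRKO tumors.

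**Figure D5:**
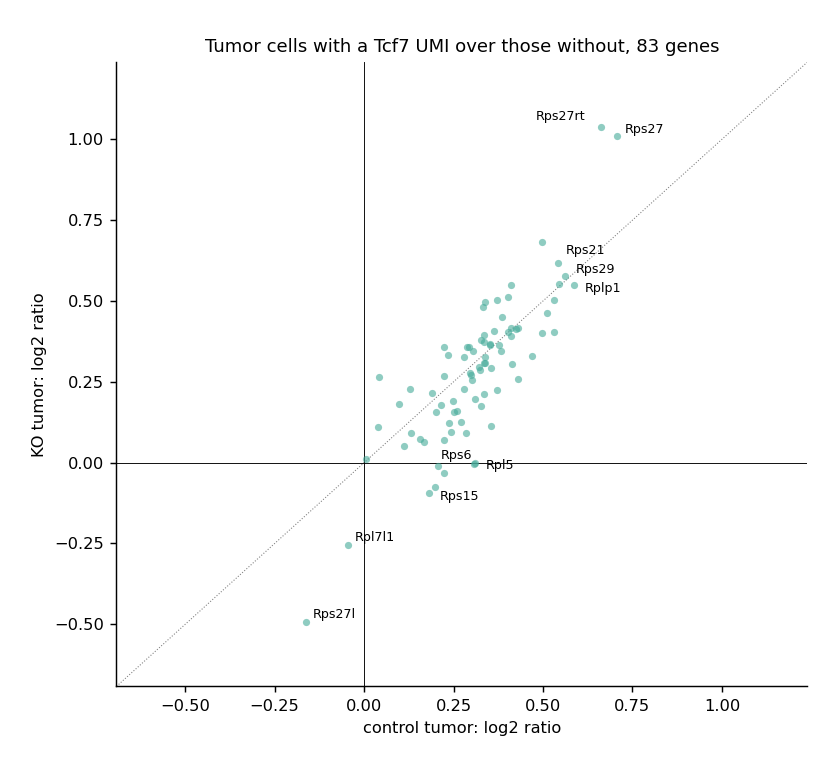
Log2 ratio of pooled CPM in tumor cells with a *Tcf7* UMI over those without, for each of the 83 genes in control (x axis) and CD8-IFNγRKO (y axis) tumors, with the line of equal ratios dotted. The genes center on 0.32 and 0.30, with *Rps27* at 0.71 and 1.01.

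Most lists of other translation genes had medians closer to 0 than the members in this comparison. Biogenesis genes had medians of 0.24 in control (18 of 42 higher, 0 lower) and 0.06 in CD8-IFNγRKO tumors (3 higher, 0 lower), with *Nob1* at 0.69 in control and *Utp14a* at 0.51 in CD8-IFNγRKO tumors as the highest. *Myc* was at 68.8 CPM with and 41.4 CPM without *Tcf7* in control tumors, and at 144 and 91.8 CPM in CD8-IFNγRKO tumors. Mitochondrial ribosomal proteins had medians of -0.05 and -0.14, with 8 and 5 of 78 higher and 7 and 24 lower. Beside the counts of both lists, 21 and 23.8% of all genes were higher by 0.25 and 23.4 and 25% lower. Elongation factors had medians of 0.24 and 0.10, led by *Eef1b2* at 0.34 and 0.41. The initiation factor *Eif4a2* was at 0.44 and 0.45. Of the other TOP mRNA genes, the snoRNA host *Snhg8* was at 1.04 in control and *Snhg12* at 1.01 in CD8-IFNγRKO tumors, farther from 0 than nearly all members, while *Vim* was at -0.37 and -0.74. *Fau*, at 0.19 and 0.38, was above the members' median in CD8-IFNγRKO tumors, and *Rack1* was at 0.24 and 0.15.

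For *Rpl9* and *Rpl10* the deposited values are uncertain, since features named as their pseudogene copies, which the symbol rule leaves out, held more UMIs than they did. Whether reads of the parents were counted on the copies was not tested. *Rpl9-ps6* held 915446 UMIs over the 4 libraries and *Rpl10-ps3* 398565. In control LN, *Rpl9* was at 875 CPM and its copy at 4764 CPM, and *Rpl10* at 447 CPM and its copy at 2196 CPM. With parent and copy added, the log2 ratio of CD8-IFNγRKO over control in tumors was -0.13 for *Rpl9* and 0.34 for *Rpl10*, compared with 0.04 and 0.19 for the parents alone. In control mice, tumor over LN was -0.64 and -0.97 for the sums, -0.60 and -0.56 for the parents and -0.64 and -1.07 for the copies alone.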

How the data were processed

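Single-cell RNA sequencing (10x 5′ kit) of sorted CD8 T cells was used, with 1 library of 3 pooled mice for each of 4 groups. The authors mapped reads to mm10 with Cell Ranger (6.0.0 per the file headers) and deposited unnormalized whole-number counts, each the UMIs of a gene in a barcode. The TCR libraries were not used here. The matrices hold no map from cells to mice. Following the study's methods, a cell had to hold 200 to 6000 genes and a mitochondrial share of 3% or less. It was dropped where a single gene took over 20% of its UMIs or where *Cd2*, *Cd8a* or *Cd8b1* had no UMI. No doublet caller was run, and doublets were kept.

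UMIs were summed over cells and divided by the total of all genes. CPM and log2 ratios (after adding 1 CPM) with their exact 95% intervals (conditional binomial for ratios, Poisson for CPM, Clopper-Pearson for shares) were computed with Python 3.11.15, numpy 2.4.6, scipy 1.17.1 and pandas 2.3.3. Cells are not replicates, so no test was run. Most intervals are narrow because members have many UMIs, and they do not cover the spread between mice. UMIs stand for molecules, but free RNA is among them. On simulated data for 6072 genes of the tumor comparison, 93% of intervals of 200 changed genes held the true ratio. The simulated counts followed the Poisson model that the intervals assume, so this checks the computation only and not the real libraries. The genes printed are, per comparison, the 4 highest and 4 lowest members, all stalk and related genes, the highest and lowest gene of each translation list, and *Myc*. A few genes that the rule names are not reported here. Others are said to be named after their values were seen or stand as partners or copies of such genes. Members, lists and limits were chosen with earlier results of these data known. Names and positions came from RefSeq tables of GRCm38.p6, in which all 83 genes matched.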

Additional observations from a re-analysis of the deposited data

Results flagged for a closer look

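The 3 members below stood in opposite directions in the tissues, CD8-IFNγRKO over control, with both counting intervals apart from 0 and a gap of at least 0.5 in log2 ratio. *Rps15* was at 0.50 in tumors and -0.062 in LN. *Rps6* was at 0.47 in tumors and -0.15 in LN. *Rpl5* was at 0.45 in tumors and -0.086 in LN. Opposite signs alone were common in the set. Of the 83 members, 48 were below 0 in LN and above 0 in tumors, and 6 the reverse, a count not made over all genes. In LN 74 members were below 0, around a median of -0.06, so the LN signs are not particular to these genes. With 1 library per group the difference between tissues was not tested.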

How the results depend on the processing

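No paired analysis was possible because each group is 1 library. The sign of the median of the members was kept under all alternatives run for 7 of the 8 comparisons, and in tumor cells with a *Tcf7* UMI, CD8-IFNγRKO over control, it ran from -0.073 to 0.056. Values that left the counting interval follow, as medians of log2 ratios in the order of the report. The interval used was that of the gene at the median, so its width differed between comparisons. It was 0.062 to 0.074 for genotypes in tumors, but 0.25 to 0.34 for *Tcf7* in CD8-IFNγRKO tumors. The latter thus held 0.32 from median of ratios scaling and 0.31 with no filter on cells. Median of ratios scaling gave -0.71 and -0.60 for tumor over LN in control and CD8-IFNγRKO mice, -0.086 for genotypes in LN and 0.049 in tumors, 0.35 for *Tcf7* in control tumors, and -0.030 and 0.049 for genotypes in cells with and without *Tcf7*. Scaling to the total without ribosomal protein, mitochondrial, TCR and heat shock genes gave -0.97 and -0.82 for tumor over LN, where it moved the median of all genes to -0.24 and -0.21, -0.080 for genotypes in LN, and 0.42 and 0.39 for *Tcf7*. With no filter on cells, tumor over LN was -0.68 and -0.55 and *Tcf7* in control tumors 0.37. The mean over cells gave -0.70 and -0.55, 0.080 for genotypes in tumors, and 0.44 and 0.38 for *Tcf7*. Without the 8% of cells with most UMIs the values were -0.70 for tumor over LN in control, 0.074 for genotypes in tumors, and 0.39 and 0.36. Without cells with *Mki67* or *Top2a* they were -0.66 and -0.48, 0.10, 0.40 and 0.42, and 0.045 for genotypes in cells with *Tcf7*. With members down to 1 UMI, tumor over LN in CD8-IFNγRKO mice was -0.55.

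Cells thinned to 1600 UMIs (701 control and 278 CD8-IFNγRKO cells were shallower) gave 0.47 and 0.40 for *Tcf7*, and -0.073 for genotypes in cells with it. A limit of 2 *Tcf7* UMIs gave 0.40 and 0.35. After the data were seen, cells with 5000 to 10000 UMIs were tried, with 0.059 for genotypes in tumors, 0.40 and 0.43 for *Tcf7*, and 0.056 and 0.040 for genotypes with and without *Tcf7*, and cells with *Pdcd1*, with 0.20 and 0.14 for *Tcf7*.

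The share of UMIs in LN was 33.0 and 32.0% with no filter, 33.2 and 32.1% without the deepest cells and 33.4 and 32.2% without cycling cells. In tumors it was 19.7% (CD8-IFNγRKO, no filter), 19.6 and 19.5%, 20.3 and 20.4%, and 19.8 and 19.6% without cells with macrophage or DC genes. With *Tcf7* it was 28.0 and 26.1% after thinning and 25.9 and 25.2% at 2 UMIs, and without *Tcf7* 19.5 and 19.2% after thinning.

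Counts of members at 0.25 were within 1.5 times of those given, except the following, and no alternative was run for counts at 0.5 or of other gene lists. Members at 0.25 or higher, tumor over LN, numbered 1 or 2 in place of 4 in CD8-IFNγRKO mice under 5 alternatives, and 2 in place of 1 in control mice without cycling cells. In tumor cells with *Tcf7*, CD8-IFNγRKO over control, 4 higher and 9 lower became 2 and 10 (median of ratios, mean over cells), 6 and 4 (without cycling cells) and 11 and 7 (5000 to 10000 UMIs). For *Tcf7*, 58 and 50 higher became 20 and 10 in cells with *Pdcd1*, and the lower members ran from 0 to 3. With members down to 1 UMI, 1 was lower by genotype in LN in place of 0. Reversed single genes, beyond those in the report, were *Rpl5* in cells with *Tcf7* (CD8-IFNγRKO over control) at -0.17 after thinning and *Rpl27* for *Tcf7* in control tumors at -0.00036 with 5000 to 10000 UMIs. The cause was not tested. *Rpl7a* was at -0.17, *Rpl27* at -0.082 and -0.14, *Rps15* at 0.0016, 0.028 and 0.12, *Rps27l* at 0.00044 and *Rpl22l1* at -0.023, as given there.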

Other observations

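Paralogs and their parents did not hold one ratio across the libraries. *Rpl36al* took 29.3 and 29.4% of the UMIs on *Rpl36al* and *Rpl36a* in control and CD8-IFNγRKO LN, and 45.6 and 43.8% in the tumors. *Rpl22l1* took 38.3 and 39.4% of the UMIs on *Rpl22l1* and *Rpl22* in LN, and 39.2 and 41.7% in the tumors. In tumor cells with a *Tcf7* UMI, *Rpl36al* took 39.2 and 38.9%, and in those without 46.0 and 44.2%.

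Cycling tumor cells were close to the others in their median share of ribosomal protein UMIs. The median was 18.8% with and 19.3% without a UMI of *Mki67* or *Top2a* in control tumors, and 18.9 and 19.2% in CD8-IFNγRKO tumors. The 95th percentiles were farther apart, at 24.4 and 27.0% and at 24.3 and 31.8%. Depth differed, with medians of 11068 and 5095.5 UMIs per cell in control and 12938.5 and 5761.5 in CD8-IFNγRKO tumors. The classes were not compared at equal depth.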
